A study of Arabidopsis thaliana with 6 samples.

Results

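The genes described here are 10 Arabidopsis thaliana genes of leaf senescence and chlorophyll breakdown, taken by locus identifier from the 38150 genes listed in each library. They are the NAC transcription factor genes ORE1 (gene-AT5G39610) and NAP (gene-AT1G69490), the chlorophyll breakdown genes NYC1 (gene-AT4G13250), NYE1 (gene-AT4G22920), PPH (gene-AT5G13800) and PAO (gene-AT3G44880), the senescence-associated genes SAG12 (gene-AT5G45890) and SAG13 (gene-AT2G29350), the sugar exporter gene SWEET15 (gene-AT5G13170) and the dark-inducible gene DIN1 (gene-AT4G35770). All 10 are listed in all 6 libraries. The tested plants were nid1 knockout seedlings (3 libraries), set against wild-type Col-0 seedlings (WT, 3 libraries). Both were 9 days old and labelled as whole plants. Both had grown at 23 °C in days of 16 h light and 8 h dark with 20 mM nitrate, had then been moved to medium short of nitrate, and were sampled after 6 h at 0.05 mM nitrate. The labels name neither the nid1 allele, the locus it removes nor the number of lines, so the knocked-out transcript was not checked. Nor do they say whether replicates came from separately grown plants, so each p-value weighs a difference against library spread that may be technical only.

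Leaf senescence is the ordered dismantling of a leaf, in which nitrogen and other nutrients are recovered and sent to growing organs or seeds. NAC factors act near its top, ORE1 downstream of the ethylene signalling protein EIN2. Chlorophyll is taken apart on the chloroplast membranes. NYC1 reduces chlorophyll b, NYE1 (also called SGR1, STAY-GREEN) removes the magnesium from chlorophyll a, PPH cuts off the phytol tail and PAO opens the ring, after which the green colour is lost. Low nitrogen supply is a known trigger of leaf senescence in Arabidopsis.

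Values are FPKM, fragments scaled to transcript length and library depth, so levels of different genes can be set side by side. The files give no fragment counts. From the spacing of the lowest values, depth relative to WT replicate 1 was about 0.637 to 0.841 in nid1 and 0.785 to 1 in WT, and no counting error can be given. On the leading principal component (38.3% of variance) WT replicate 2 scored -45.9 and the other 5 libraries scored -6.75 to 18.8. Marker levels were mixed. The mean of the leaf marker CA1 was near the bottom of the tested genes. Means of the other leaf markers lay above 54.1% (RBCS3B) to 95.3% (RBCS1A) of tested genes. Those of the root markers lay above 44.3% (COBL9) to 100% (PYK10). The libraries, labelled as whole plants, held root transcripts, so levels of leaf senescence genes here cannot be read as levels in leaves. Summed over 6 leaf markers, the level was 236 to 444 FPKM in nid1 and 134 to 164 FPKM in WT. All 6 lay higher in every nid1 library than in every WT library (5.50% of all tested genes). CA1, a carbonic anhydrase gene abundant in leaves, was at 1.02 to 1.44 FPKM in nid1 and at 0.659 to 0.763 FPKM in WT, and its mean level lay above that of 0.37% of tested genes. RBCS1A, a gene of the small Rubisco subunit, was above 95.3% of tested genes, and CASP1, a gene of the root endodermis, above 96.1%. Summed over 7 root markers, the level was 3253 to 3430 FPKM in nid1 and 4067 to 4527 FPKM in WT. Most of it came from PYK10, a β-glucosidase gene of the root. Of the 7, 1, PYK10, lay lower in every nid1 library than in every WT library (4.79% of all tested genes). The 3 seed storage markers summed to 0 to 0.0406 FPKM in nid1 and to 0.0497 to 0.12 FPKM in WT. OLEO1 and CRU3 were at 0 in all nid1 libraries, but OLEO1 was also at 0 in WT replicate 1 and CRU3 in WT replicate 2. No value of the 3 was above 0.0841 FPKM, too near 0 to be read as a difference. The part of these markers in the results was not tested, and in such bulk samples fewer cells of a type and less RNA per cell cannot be told apart.

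Some sequences help in reading the values. ORE1 is held back in young leaves by the microRNA miR164, which pairs with a site in its coding sequence. Its pairing is shown with the mature miR164a of RefSeq (TAIR10.1, chr2:19520770-19520790, plus strand), with the seed, bases 2 to 8, in capitals. The ORE1 line is the best-matching stretch of its transcript (chr5:15858797-15858817, minus strand, exon 3, coding), with the bases complementary to miR164a in capitals. All sequences are written 5′ to 3′ with T for U.
ath-miR164a: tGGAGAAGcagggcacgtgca
ORE1 site: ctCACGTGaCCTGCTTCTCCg
In all, 17 of 21 positions paired. The best windows of the other 9 transcripts paired at 11 to 15 positions, the most in SWEET15. The mature sequence of MIR164B is identical to that of MIR164A.

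The promoters of NAP and SAG12 are shown because these genes had the smallest p-values of the 9 tested. Each runs from 250 bases before to 50 bases after the annotated start (RefSeq, TAIR10.1), NAP at chr1:26121830-26122129 and SAG12 at chr5:18612989-18613288, both on the plus strand. Capitals mark the G-box CACGTG, the letters bound by PIF and ABI5-type factors, and TTGAC, the core of the W-box bound by WRKY factors, searched on both strands.
NAP: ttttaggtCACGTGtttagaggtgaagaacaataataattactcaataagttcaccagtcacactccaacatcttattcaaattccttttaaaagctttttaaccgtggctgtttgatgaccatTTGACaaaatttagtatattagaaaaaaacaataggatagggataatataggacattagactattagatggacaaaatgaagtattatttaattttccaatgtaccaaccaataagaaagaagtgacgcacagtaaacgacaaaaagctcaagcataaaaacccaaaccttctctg
SAG12: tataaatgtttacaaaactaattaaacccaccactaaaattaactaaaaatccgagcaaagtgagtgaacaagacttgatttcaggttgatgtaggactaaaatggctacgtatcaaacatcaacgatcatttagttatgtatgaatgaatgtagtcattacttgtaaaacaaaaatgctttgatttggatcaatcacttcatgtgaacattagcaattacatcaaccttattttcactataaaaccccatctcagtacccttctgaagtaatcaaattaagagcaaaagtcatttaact
NAP held the G-box and the W-box core once each, and SAG12 held neither in this window. Of the 10 promoters, 2 held the G-box (NAP and NYC1), against 7.68% of 27443 promoters of protein-coding genes in the same window. The W-box core was in 6 of the 10, against 50.5% of all, and in NYC1 1 of its 2 copies overlapped the G-box. A further motif, TATCCA, was in 2 of the 10 (NYC1 and DIN1), against 16.1%. These matches describe letters only, since no binding was measured.

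Between nid1 and WT no gene of the 10 passed the test, but they did not all sit alike. SAG12 showed the widest difference, about 5.6-fold in mean FPKM, and NAP, PPH and DIN1 also lay higher in every nid1 library than in every WT library. SWEET15 lay lower in every nid1 library. ORE1, NYC1, NYE1, PAO and SAG13 overlapped between the genotypes. Differences were tested with limma on log2(FPKM + 1) over the 20533 genes that reached 1 FPKM in 3 libraries or more, with p adjusted over all of them and a gene called at an adjusted p under 0.05. The 9 genes tested were at 1 FPKM or more in all 6 libraries, and DIN1 was below the filter. Of the 9, 0 were called, against 0.0877% of all tested genes (18 of 20533, 0.0633% with nid1 higher and 0.0244% with nid1 lower). Without WT replicate 2 the count was 1, SAG12. An unadjusted p under 0.05 was found for 3 of the 9, NAP, SAG12 and SWEET15, against 6.21% of all tested genes. Groups did not overlap in 4 of the 9, against 10.3% of all tested genes. In 3 of them nid1 was higher (5.50% of all tested genes) and in 1 it was lower (4.79%). The 10 genes, and the other lists below, were chosen with earlier results of these data known. An excess over these shares was therefore not tested and cannot be read from them. The median log2 fold change of the 9 was 0.23, and that of all tested genes was 0.000218. Without WT replicate 1 the median of the 9 was 0.06.

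**Figure D1:**
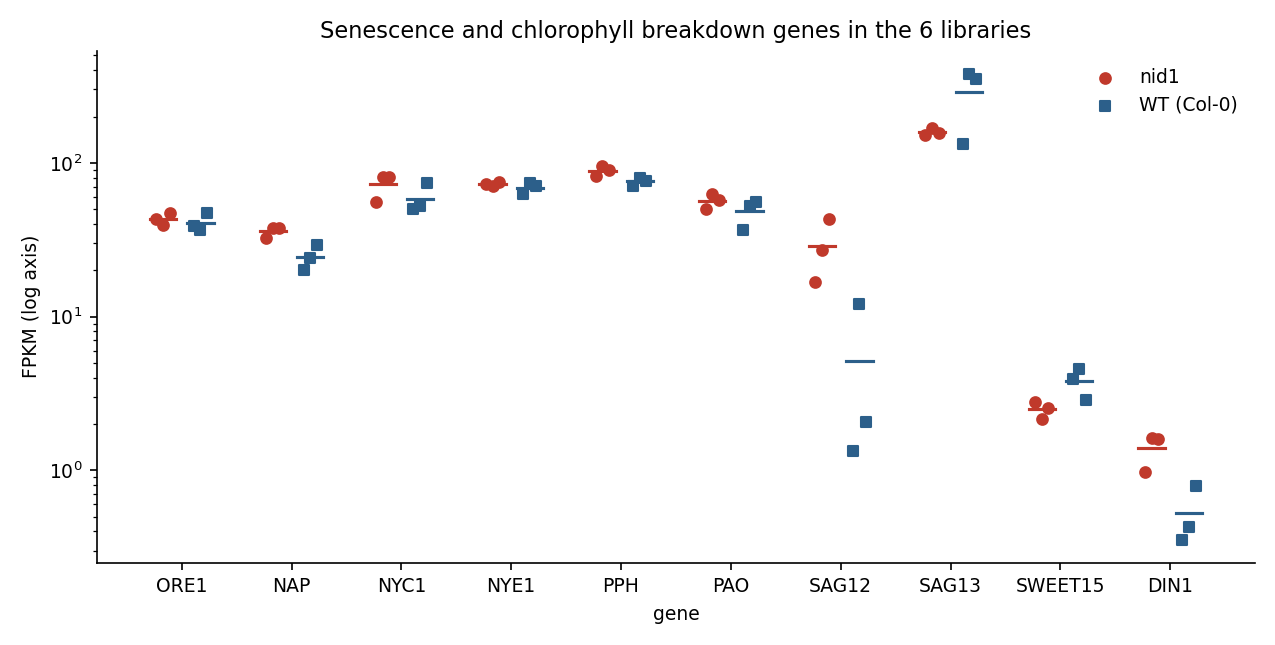
FPKM of the 10 genes in each library on a log axis, with nid1 as red circles, WT as blue squares and bars at the means of 3. SAG12 spans the widest range, from 16.7 to 42.9 FPKM in nid1 and from 1.33 to 12.1 FPKM in WT, while the 4 chlorophyll breakdown genes all sit between 36.8 and 94.7 FPKM.

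Of the NAC regulators, ORE1 had 43.1, 39.3 and 47.0 FPKM in nid1 replicates 1, 2 and 3, against 38.9, 36.7 and 46.9 FPKM in WT replicates 1, 2 and 3. The ranges overlapped almost wholly. The log2 fold change was 0.08 (95% interval -0.23 to 0.40, limma adjusted p = 1.00), so a change of the size seen for NAP lies outside the interval for ORE1. NAP, which drives ageing of leaves and acts on abscisic acid signalling, had 32.3, 37.9 and 37.9 FPKM in nid1, against 20.1, 23.9 and 29.0 FPKM in WT. Every nid1 library was above every WT library, with means of 36.1 ± 3.23 and 24.3 ± 4.43 FPKM (SD, n = 3 each). The log2 fold change of NAP was 0.56 (SE 0.154, 95% interval 0.20 to 0.92) and it was not called (limma adjusted p = 0.418, unadjusted p = 0.00699). Both genes were well expressed, with mean levels above those of 80.1% (ORE1) and 73.1% (NAP) of tested genes.

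The genes around ORE1 gave values close to one another in both genotypes, apart from a pair of light-regulated factors. EIN2 averaged 21.8 ± 1.57 FPKM in nid1 and 21.2 ± 5.33 FPKM in WT, and EIN3, the ethylene transcription factor that switches ORE1 on, 108 ± 6.35 and 110.3 ± 4.93 FPKM (SD, n = 3 each). Their log2 fold changes were 0.07 and -0.02 (limma adjusted p = 1.00 for both). The miR164 genes MIR164A and MIR164B were listed at 0 in all 6 libraries, and MIR164C was not found among the listed genes by its locus identifier. Mature microRNAs carry no poly(A) tail and are not measured by such libraries, so the zeros give no level of the microRNA. PIF4 and PIF5, bHLH factors that promote dark-induced senescence, lay higher in every nid1 library. PIF4 had 6.39, 14.9 and 10.7 FPKM in nid1, against 4.32, 5.56 and 5.57 FPKM in WT, with a log2 fold change of 0.86 (limma adjusted p = 0.505). PIF5 averaged 19.0 FPKM in nid1 and 12.9 FPKM in WT, with a log2 fold change of 0.51 (limma adjusted p = 0.454). Neither was called.

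The 4 chlorophyll breakdown genes were expressed at similar levels, each above 83.9% of tested genes or more, and all 4 means were higher in nid1 by small amounts that did not pass the test. NYC1 had 55.5, 81.1 and 81.2 FPKM in nid1, against 49.7, 52.3 and 73.5 FPKM in WT. In each genotype a single library set the spread, nid1 replicate 1 at the low end and WT replicate 3 at the high end. NYE1 was the steadiest of the 9 tested genes, with 72.5, 71.1 and 74.6 FPKM in nid1, against 62.3, 74.1 and 70.4 FPKM in WT. Its values spanned 0.26 on the log2 scale over all 6 libraries, and SAG12 spanned 4.24. PPH had 81.9, 94.7 and 90.3 FPKM in nid1, against 71.0, 80.1 and 76.0 FPKM in WT. It was the one gene of the 4 whose groups did not overlap, though by a narrow gap between nid1 replicate 1 and WT replicate 2. PAO had 49.7, 63.1 and 56.9 FPKM in nid1, against 36.8, 52.5 and 55.4 FPKM in WT, and the ranges overlapped.

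The log2 fold changes were 0.31 for NYC1 (95% interval -0.17 to 0.79), 0.08 for NYE1 (-0.19 to 0.35), 0.23 for PPH (-0.05 to 0.51) and 0.24 for PAO (-0.17 to 0.66). The limma adjusted p was 0.929 for PPH and 1.00 for the other 3. With all 6 libraries the 4 intervals include 0, and their highest bound is 0.79. The NYC1 estimate moved with single libraries. Its log2 fold change was 0.20 without WT replicate 1, the lowest value. It was 0.49 without nid1 replicate 1 (95% interval 0.0088 to 0.97, limma adjusted p = 0.730) and 0.48 without WT replicate 3 (0.0107 to 0.95, limma adjusted p = 0.919). For PPH the interval was 0.03 to 0.51 without WT replicate 2 (limma adjusted p = 0.341). None of these was called. Without WT replicate 1, which had the lowest PAO value, the PAO log2 fold change was 0.06. Summed over the 4 genes, the level was 259.6, 310 and 303 FPKM in nid1 replicates 1, 2 and 3, and 219.8, 259 and 275 FPKM in WT replicates 1, 2 and 3. The summed ranges overlapped, whereas the summed leaf markers did not.

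**Figure D2:**
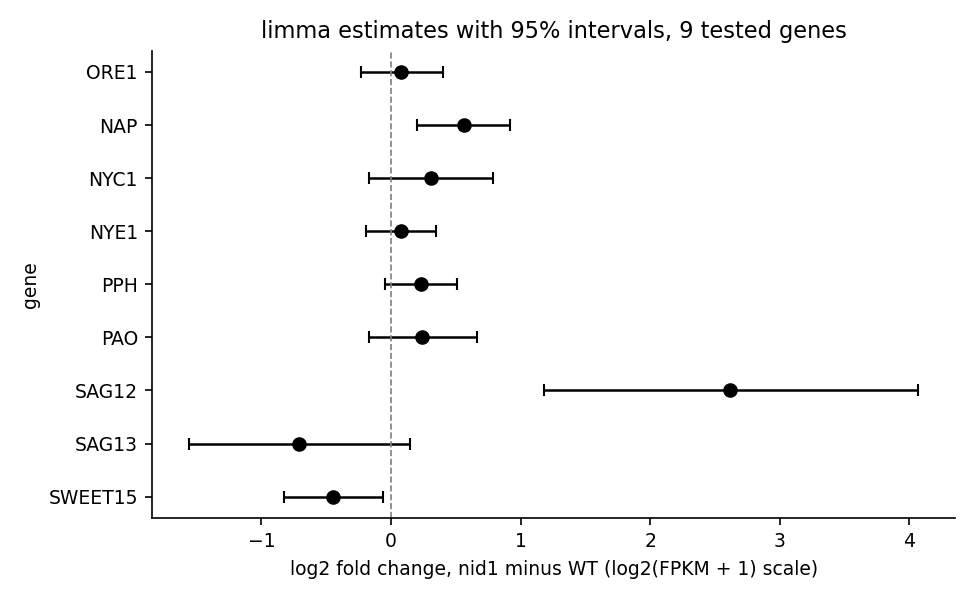
The limma log2 fold change of each tested gene, nid1 minus WT, with its 95% interval. The intervals of NAP, SAG12 and SWEET15 do not reach 0, and those of the 4 chlorophyll breakdown genes lie between -0.19 and 0.79.

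Other genes of the chlorophyll pathway were mostly above 0 too. Of 11 such genes, all 11 were tested and 0 were called in either direction. Their median log2 fold change was 0.19, and 9 lay above 0, against 10276 of all 20533 tested genes. An unadjusted p under 0.05 was found for 2 (6.21% of all tested genes). In 3 of the 11 every nid1 library lay higher (5.50% of all tested genes), and in 0 every one lay lower (4.79%). The 3 were HCAR, CLH1 and SGRL. HCAR, the reductase that completes the turning of chlorophyll b into chlorophyll a after NYC1, had 5.65, 7.43 and 6.44 FPKM in nid1, against 4.39, 3.93 and 5.02 FPKM in WT (log2 fold change 0.46, limma adjusted p = 0.515). CLH1, a chlorophyllase that is not needed for breakdown during senescence, had 6.15, 10.2 and 6.63 FPKM in nid1, against 3.33, 5.81 and 2.58 FPKM in WT (log2 fold change 0.84, limma adjusted p = 0.543). SGRL, a relative of NYE1, averaged 9.82 FPKM in nid1 and 8.46 FPKM in WT.

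In the other 8 genes of the list the ranges of nid1 and WT overlapped. NYE2, the sister copy of NYE1, averaged 29.6 ± 1.84 FPKM in nid1 and 23.3 ± 9.54 FPKM in WT, below NYE1 in each genotype. NOL, which works with NYC1, averaged 10.6 ± 0.890 and 8.79 ± 2.26 FPKM. RCCR, the enzyme after PAO, averaged 36.9 ± 3.94 and 35.5 ± 7.71 FPKM (SD, n = 3 each). TIC55, which modifies the breakdown product further, averaged 19.1 FPKM in nid1 and 18.3 FPKM in WT. The cytochrome P450 gene CYP89A9 averaged 35.2 ± 5.84 FPKM in nid1 and 27.6 ± 5.71 FPKM in WT (SD, n = 3 each). The esterase gene MES16 averaged 1.01 FPKM in nid1 and 1.11 FPKM in WT, and CLH2, the other chlorophyllase gene, 1.31 and 1.62 FPKM. CV, which takes chloroplast proteins to the vacuole, averaged 72.8 FPKM in nid1 and 73.2 FPKM in WT.

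The marker genes of senescence split. SAG12, a cysteine protease gene whose transcript is a textbook mark of ageing leaves, had 16.7, 27.2 and 42.9 FPKM in nid1, against 1.33, 12.1 and 2.07 FPKM in WT. Every nid1 library was above every WT library, and WT replicate 2 was well above the other WT libraries. Means were 28.9 ± 13.2 FPKM in nid1 and 5.16 ± 6.02 FPKM in WT (SD, n = 3 each). The log2 fold change was 2.62 (SE 0.624, 95% interval 1.18 to 4.07) and SAG12 was not called (limma adjusted p = 0.309, unadjusted p = 0.00313). Without WT replicate 2, which also stood apart on the leading principal component, the log2 fold change was 3.39 and SAG12 was called (limma adjusted p = 0.0449). Since that library held the highest WT value of SAG12, leaving it out widens the difference by construction. Over all 12 other settings it lay between 2.14 and 3.39, with limma adjusted p from 0.0449 to 0.947. SAG12 was the member with the largest fold change in size, and 0.925% of all tested genes had a log2 fold change of at least 1 in either direction.

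**Figure D3:**
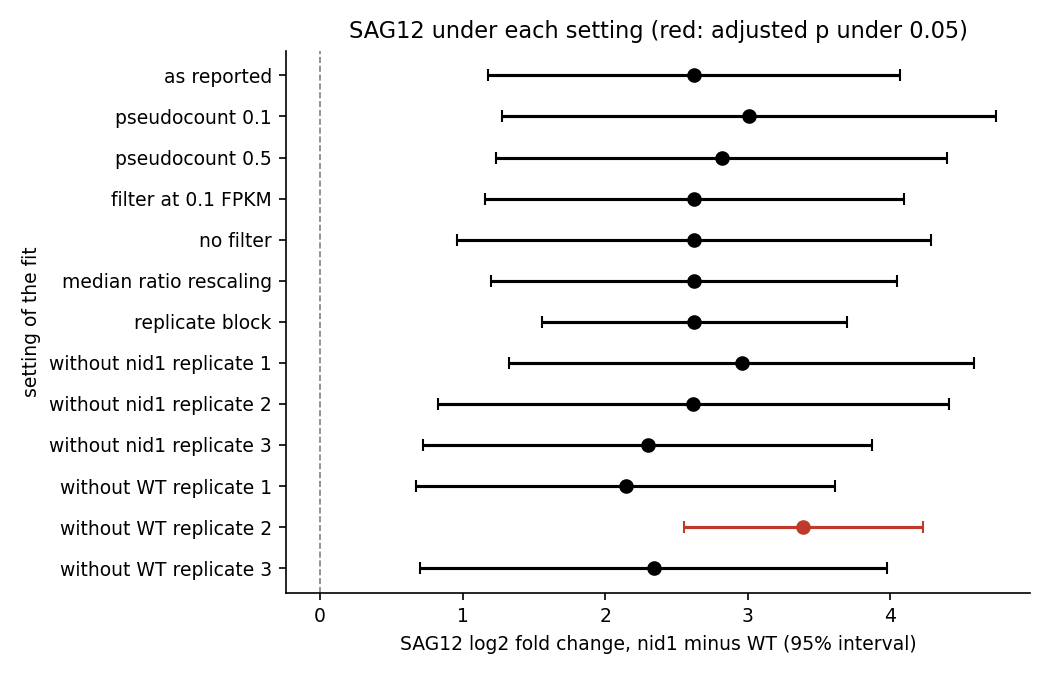
SAG12 log2 fold change, nid1 minus WT, with its 95% interval, as reported and under 12 other settings. All 13 estimates lie above 0, from 2.14 to 3.39, and the one in red, without WT replicate 2, is called.

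SAG13, a short-chain alcohol dehydrogenase gene that rises early in senescence and in stress, did not follow SAG12. It had 151, 169 and 156 FPKM in nid1, against 132, 378 and 351 FPKM in WT. The nid1 libraries sat close together, while WT replicates 2 and 3 were far above them and WT replicate 1 was below all 3 nid1 libraries. The log2 fold change was -0.71 (SE 0.370, 95% interval -1.56 to 0.15, limma adjusted p = 0.928). Without WT replicate 1 it was -1.19 (limma adjusted p = 0.0772), while leaving out WT replicate 2 gave -0.44 and leaving out WT replicate 3 gave -0.49. SAG13 was the most abundant of the 10 genes, above 97.1% of tested genes. It lies in a row of similar genes on chromosome 2. Its nearest copy, AT2G29290, is 90.2% identical over 579 bases with no identical run longer than 42 bases, and that copy was at 0.285 to 0.682 FPKM in nid1 and 0.102 to 0.199 FPKM in WT. The other 8 genes of the row reached at most 34.5 FPKM in any library. One of them, AT2G29310, lay higher in every nid1 library, with 4.37, 6.81 and 7.71 FPKM in nid1, against 1.69, 3.02 and 2.17 FPKM in WT (log2 fold change 1.14, limma adjusted p = 0.214). How the authors' software divided fragments between these copies was not tested.

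SWEET15 (also SAG29), a plasma membrane sucrose exporter, and DIN1 (also SEN1), a gene of sugar starvation and darkness, were the least expressed. SWEET15 had 2.77, 2.16 and 2.53 FPKM in nid1, against 3.91, 4.57 and 2.88 FPKM in WT. All nid1 libraries were below all WT libraries, by a narrow gap between nid1 replicate 1 and WT replicate 3. The log2 fold change was -0.45 (95% interval -0.83 to -0.06, limma adjusted p = 0.688), and its mean level lay above that of 16.7% of tested genes. DIN1 had 0.970, 1.62 and 1.59 FPKM in nid1, against 0.354, 0.426 and 0.794 FPKM in WT. All nid1 libraries were above all WT libraries, and the mean was 1.39 FPKM in nid1 and 0.525 FPKM in WT. With the filter lowered to 0.1 FPKM the DIN1 log2 fold change was 0.65 (limma adjusted p = 0.369).

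Positions of the genes in RefSeq (TAIR10.1) are chr5:15858398-15859911 for ORE1, chr1:26122080-26123514 for NAP, chr4:7684156-7687006 for NYC1, chr4:12016420-12018643 for NYE1 and chr5:4451733-4454813 for PPH. PAO is at chr3:16383595-16386344, SAG12 at chr5:18613239-18614963, SAG13 at chr2:12600914-12602556, SWEET15 at chr5:4181042-4183354 and DIN1 at chr4:16944878-16946266.

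By mean level in nid1 the order was SAG13 at 159 FPKM, PPH at 89.0, NYE1 at 72.7, NYC1 at 72.6, PAO at 56.6, ORE1 at 43.1, NAP at 36.1, SAG12 at 28.9, SWEET15 at 2.49 and DIN1 at 1.39 FPKM. In WT it was SAG13 at 287 FPKM, PPH at 75.7, NYE1 at 68.9, NYC1 at 58.5, PAO at 48.2, ORE1 at 40.8, NAP at 24.3, SAG12 at 5.16, SWEET15 at 3.79 and DIN1 at 0.525 FPKM. The order of the 10 means was the same in both genotypes. In nid1 the ranges of neighbours in this order overlapped for NYE1 with NYC1, NYC1 with PAO, and NAP with SAG12. In WT they overlapped for PPH with NYE1, NYE1 with NYC1, NYC1 with PAO, PAO with ORE1, and SAG12 with SWEET15. SAG12 thus met the range of NAP in nid1 and that of SWEET15 in WT.

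The library pattern of SAG12 was compared with those of all tested genes at a mean of 5 FPKM or more, by the root mean square difference of log2(FPKM + 1) after each gene's mean was taken off. Over the 6 libraries the closest 3 were genes of the light-harvesting antenna, which bind chlorophyll. They were CAB2 (LHCB1.1, difference 0.548), CAB3 (0.662) and LHCB4.2 (0.731). CAB2 had 23.9, 53.2 and 43.8 FPKM in nid1, against 6.21, 14.9 and 5.94 FPKM in WT. Like SAG12, CAB2 was highest among WT libraries in replicate 2 and lowest among nid1 libraries in replicate 1. Such shared features follow from the choice of the closest genes. SAG12 was highest in nid1 replicate 3, whereas CAB2, CAB3 and LHCB4.2 were highest in nid1 replicate 2. LHCB4.2 had 30.2, 60.7 and 46.9 FPKM in nid1, against 9.14, 15.6 and 10.1 FPKM in WT. CAB2 and CAB3 have near-identical copies, so their single values are uncertain. CAB2 is among the leaf markers that lay higher in nid1, and the part of these markers in the SAG12 result was not tested.

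**Figure D4:**
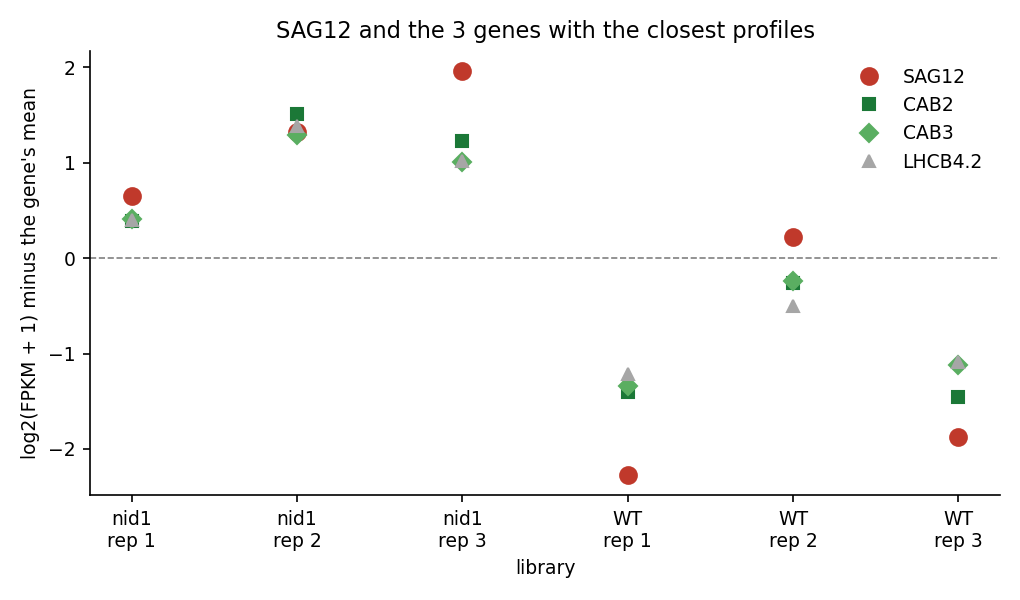
Values of SAG12 and of the 3 genes closest to it, as log2(FPKM + 1) less the gene's own mean, in the 6 libraries. All 4 genes are above their mean in the 3 nid1 libraries, with WT replicate 2 the highest WT library for each. SAG12 is highest in nid1 replicate 3 and the 3 genes chosen for likeness in nid1 replicate 2.

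Beyond the 10 genes, the values of senescence genes lay on both sides of 0. Of 67 other genes on 4 lists that are in the files, 64 were tested, 0 were called, 7 had an unadjusted p under 0.05 (6.21% of all tested genes), 31 lay above 0 and 33 below, and the median log2 fold change was -0.01. Groups did not overlap in 8 of the 64 with nid1 higher (5.50% of all tested genes) and in 7 with nid1 lower (4.79%). The list of regulators had 27 tested genes with a median of -0.01. In 3 of the 27 every nid1 library lay higher (5.50% of all tested genes), PIF4, PIF5 and WRKY54. In 5 every nid1 library lay lower (4.79%), WRKY6, WRKY22 and the NAC genes NAC016, NAC046 and NAC087. Log2 fold changes were -0.42 for WRKY22, -0.18 for NAC016, -0.17 for NAC046 and -0.31 for NAC087, and none was called. WRKY54, a WRKY factor that delays senescence, averaged 33.9 ± 2.38 FPKM in nid1 and 25.9 ± 4.13 FPKM in WT, and WRKY6, a senescence-induced WRKY factor, 31.0 ± 0.836 and 37.8 ± 1.47 FPKM (SD, n = 3 each). Their log2 fold changes were 0.38 and -0.28 (limma adjusted p = 0.681 and 0.695). ORS1, the closest relative of ORE1, averaged 42.6 FPKM in nid1 and 42.8 FPKM in WT.

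As a list, other senescence-associated and dark-inducible genes lay mostly below 0, like SAG13 and SWEET15 and unlike NAP and SAG12. Of 17 tested, 0 were called and 0 had an unadjusted p under 0.05 (6.21% of all tested genes). Below 0 lay 13 of them, against 10257 of all 20533 tested genes, and the median log2 fold change was -0.18. The 4 above 0 were all dark-inducible genes, DIN2 (0.17), DIN3 (0.05), DIN4 (0.25) and DIN9 (0.11). The dark-inducible genes DIN6 (-0.45) and DIN10 (-0.19) lay below 0. YLS9, a gene of yellow leaves, averaged 3.66 ± 0.450 FPKM in nid1 and 4.64 ± 0.227 FPKM in WT. DIN6, the asparagine synthetase gene ASN1 induced by darkness as DIN1 is, averaged 2.12 ± 0.492 and 3.33 ± 1.11 FPKM (SD, n = 3 each). The mean of DIN6 was thus lower in nid1, while those of DIN1, DIN2, DIN3, DIN4 and DIN9 were higher. DIN4 averaged 6.22 FPKM in nid1 and 5.10 FPKM in WT, and XTH24 (SEN4), a cell wall enzyme gene, 1142 and 1559 FPKM. Among 9 genes of proteases and nucleases, the company SAG12 usually keeps, 0 were called and the median was 0.04. γ-VPE (GVPE), a vacuolar processing enzyme gene, averaged 1387 ± 109 FPKM in nid1 and 1163 ± 94.2 FPKM in WT, and α-VPE (AVPE) 8.13 ± 0.652 and 9.92 ± 0.733 FPKM (SD, n = 3 each). ERD1 averaged 101 FPKM in nid1 and 83.5 FPKM in WT, and the cathepsin B gene CATHB3 488 and 564 FPKM.

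**Figure D5:**
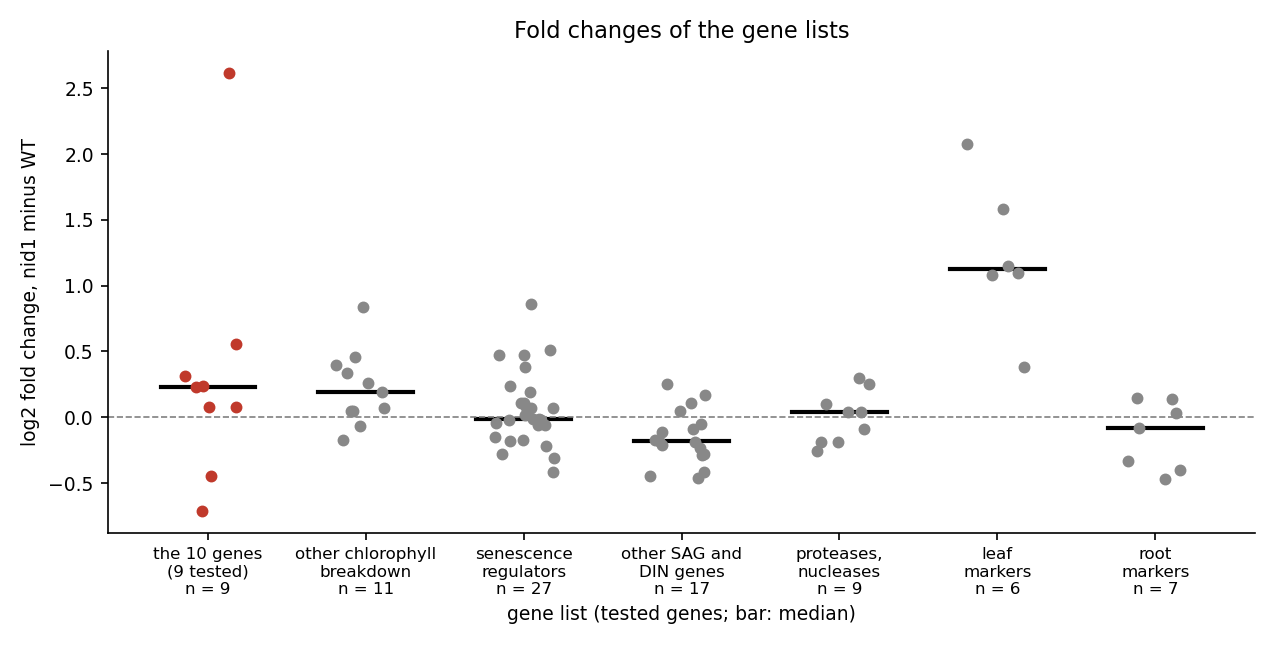
Log2 fold changes, nid1 minus WT, of the tested genes of each list, with a bar at the median. Among the 9 tested members SAG12 is highest at 2.62, the medians of the 5 senescence and chlorophyll lists lie between -0.18 and 0.23, and the 6 leaf markers have a median of 1.12.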

How the data were processed

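RNA sequencing of 6 libraries was used, 3 of nid1 and 3 of WT, with group and number read from each title. The authors deposited FPKM values, 1 per gene and library. Per the submitters' processing notes the tools were bcl2fastq 2.20, Bowtie, TopHat2 2.0.13 and Cuffdiff 2.2.1, and per the labels' protocols the libraries were stranded poly(A) libraries read as 101 bp pairs. The series' design text also names BWA and Cufflinks, and which step made the deposited values is not stated. Genome build, strand setting and library scaling: not given in the sources used here. Cuffdiff estimates how fragments divide between overlapping or similar transcripts. Of the 10 genes, PAO shares 11 exonic bases with a neighbour and the other 9 share none.

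Identifiers have the form of the RefSeq annotation, and 37932 of 38150 matched its TAIR10.1 locus tags, from which positions and sequences come. Relative depth came from the commonest low value of single-transcript genes over 1500 bp, with a fragment length of 200 bp assumed, and whole counts were not recovered.

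log2(FPKM + 1) was tested with limma 3.58.1 in R 4.3.3 (lmFit, eBayes with trend, two-sided, genotype the single term). The 20533 genes that reached 1 FPKM in 3 libraries or more entered, and the Benjamini-Hochberg adjustment ran over all of them. Fold changes on this scale understate the change of low genes. The fit was also run on simulated data, and no result given here rests on that run. Similar transcripts were sought with blastn 2.17.0.

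Named were the 10 genes, all other chlorophyll breakdown genes, the ORE1 regulators, up to 4 genes of each other list by smallest p, and the 3 genes most like the member of largest change. ORS1, NAC016, NAC046, NAC087, WRKY22, DIN2, DIN3, DIN9, DIN10 and the SAG13 neighbours were named after their values were seen. The 10 genes and the lists were chosen with earlier results of these data known. Alternatives were a pseudocount of 0.1 or 0.5, a lower filter (0.1 FPKM), none at all, rescaling by median ratios, a replicate block and leaving out each replicate.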

Additional observations from a re-analysis of the deposited data

How the results depend on the processing

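Under 12 other settings, 109 of 110 values of single members kept their direction and their side of the threshold, and 0 reversed. The exception was SAG12, at 3.39 and called without WT replicate 2. The number of members called was 0 to 1 when 1 replicate was left out and 0 under the other settings. Without 1 replicate each, the genes called over all tested genes numbered 8 to 35, against 18 with all libraries (35, 8 and 10 without nid1 replicates 1, 2 and 3, and 9, 25 and 8 without WT replicates 1, 2 and 3). Members whose groups did not overlap numbered 4 to 6. The count was 6 without nid1 replicate 1 and without WT replicate 3, where 3 libraries against 2 separate more easily. With the lower filter or none it was 5, with DIN1 among the genes tested. The share over all tested genes was not computed for these settings, so the counts are not comparable with one another. Other list genes called remained 0 in all settings, which does not show that they did not differ. With a replicate block limma called 70 genes, which included all 18, but 0 members (SAG12 limma adjusted p = 0.0927). The labels do not say what a replicate number shares, and not every same-numbered pair correlated above 0.1, so the numbers were not taken to pair the libraries. Deviations of same-numbered libraries correlated at -0.0101, 0.129 and 0.297 over tested genes for numbers 1, 2 and 3, and nid1 replicates 2 and 3 correlated best with the WT library of their own number, but nid1 replicate 1 with WT replicate 2 (0.218) and WT replicate 1 with nid1 replicate 3 (0.205). Without fragment counts, the counting error of the lowest genes, SWEET15 and DIN1, is not known.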
